A study of Mus musculus with 18 samples.

Results

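The collagen genes are the genes of both deposited count tables whose symbol is Col, a number, the letter a and a number, as Entrez identifiers map to symbols. This rule takes 44 of the 24100 genes listed. They were sorted by the kind of assembly their chains form: 11 fibrillar, 6 basement membrane, 9 fibril-associated and 4 transmembrane collagens, 6 chains of the beaded filament collagen VI, 3 short-chain network collagens, 2 multiplexins and 3 others (*Col7a1*, *Col26a1* and *Col28a1*). RNA was measured in C3H/10T1/2 cells, a mouse embryonic line used as mesenchymal progenitor cells (MPCs), with no differentiation treatment named in the labels. The study asked how loss of ATRX, a chromatin remodeler, alters transcription in such cells. The WT line received the Cas9 vector without a guide, and each *Atrx* KO line, sg5 (clone G7) and sg6 (clone B10), is 1 clone made with 1 guide. Each line has 3 polyA-selected and 3 rRNA-depleted libraries, 18 in all, so every n = 3 refers to libraries made from 1 line. Nothing in the labels says that they came from separate cultures, so p-values measure only the spread between these libraries. An effect of *Atrx* loss and any other difference of a single clone from the WT line cannot be told apart.

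Collagens are trimers of chains wound into a triple helix, secreted as procollagens and assembled outside the cell. Fibrillar collagens form the banded fibers of bone, tendon and cartilage, fibril-associated collagens sit on the surface of those fibers, type IV chains build the sheet of the basement membrane, and transmembrane collagens span the plasma membrane. Mesenchymal progenitors lay down mainly type I, III, V and VI chains, and the set of chains changes as they become bone, cartilage or fat cells.

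Library totals ran from 27544833 to 235346363 counts in polyA and from 20135336 to 33187136 in rRNA-depleted RNA, with the 3 sg5 polyA libraries the deepest. *Atrx* itself was at 275.9 to 327.6 CPM (counts scaled by the library total) in WT polyA libraries and at 113.9 to 141.4 in the KO ones, so its RNA was lower but present. Of the 8 mesenchymal markers, *Vim*, *Prrx1*, *Pdgfra* and *Pdgfrb* were high in every line, while *Thy1* was high only among sg6 libraries (154, 128 and 119 CPM in polyA, against 0.803, 1.1 and 1.09 in WT). By the threshold used below, *Thy1* fell in sg5 in polyA (12.5% against 6.96% of all genes tested). *Thy1* and *Ly6a* rose in sg6 there (25% against 3.64%). In rRNA-depleted libraries *Thy1* rose in sg6 (12.5% against 2.16%) and no other marker of the list passed against WT. At an adjusted p below 0.05 in edgeR and any size of change, 1 of the 8 was higher and 3 were lower in sg5 polyA libraries, and 4 and 2 in sg6. The share of all genes at that looser level was not counted, so nothing is read from these counts. Defining markers of endothelial cells (*Cdh5*, *Kdr*) and of blood cells (*Ptprc*) lay under 1 CPM in every group. The endothelial list summed to 22.8 to 37 CPM in WT polyA libraries, 24.1 to 28.5 in sg5 and 15.4 to 20.9 in sg6. Among its 6 genes tested there, *Tek* rose and *Erg* and *Pecam1* fell in both clones, and *Vwf* fell in sg6. These are 16.7% higher and 33.3% lower in sg5 (against 3.18% and 6.96% of all genes tested) and 16.7% and 50% in sg6 (against 3.64% and 7.54%). Of the 3 blood cell markers tested in polyA, *Csf1r* fell in sg5 (33.3% against 6.96%). The part of such cells in the collagen results was not tested.

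The question put to the collagens was which chains differ between WT and each KO clone, and by class. A gene counts as changed here when edgeR's quasi-likelihood test gives it a log2 fold change beyond 1 and its p, adjusted by Benjamini and Hochberg over all features tested, is below 0.05. After a filter on low counts, 36 collagens were tested in polyA and 35 in rRNA-depleted libraries. In polyA libraries, 7 of the 36 rose in sg5 (19.4%, against 3.18% of all genes tested) and 5 fell (13.9% against 6.96%). In sg6, 6 rose (16.7% against 3.64%) and 4 fell (11.1% against 7.54%). Between the clones, 3 were higher in sg5 (8.33% against 1.36%) and 1 was lower (2.78% against 1.25%). The median log2 fold change of the tested collagens was 0.43 in sg5 and 0.39 in sg6, beside 0.00 and -0.01 for all genes tested.

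In rRNA-depleted libraries, 7 of 35 collagens rose in sg5 (20% against 3.04% of all genes tested) and 2 fell (5.71% against 4.31%). In sg6, 3 rose (8.57% against 2.16%) and 2 fell (5.71% against 3.59%). Between the clones, 1 was higher in sg5 (2.86% against 0.556%) and 0 were lower by edgeR, where 0.925% of all genes were. At an unadjusted p below 0.05 in edgeR, 2 were lower at any size of change, and DESeq2 called 1. Shares of all genes at these other settings are not given here. The medians were 0.49 and 0.36, beside 0.08 and 0.04 for all genes. The comparisons of both clones use the same WT libraries. Many of these changes are of a size near the threshold: tested against a log2 fold change of 1 instead of 0, 1 collagen was higher and 3 were lower in sg5 polyA libraries, and 1 and 1 in sg6. The share of all genes that passed that test is not given here, so these counts are set only against those of the main fit. In bulk RNA, fewer cells that express a gene and less RNA per cell cannot be told apart.

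**Figure D1:**
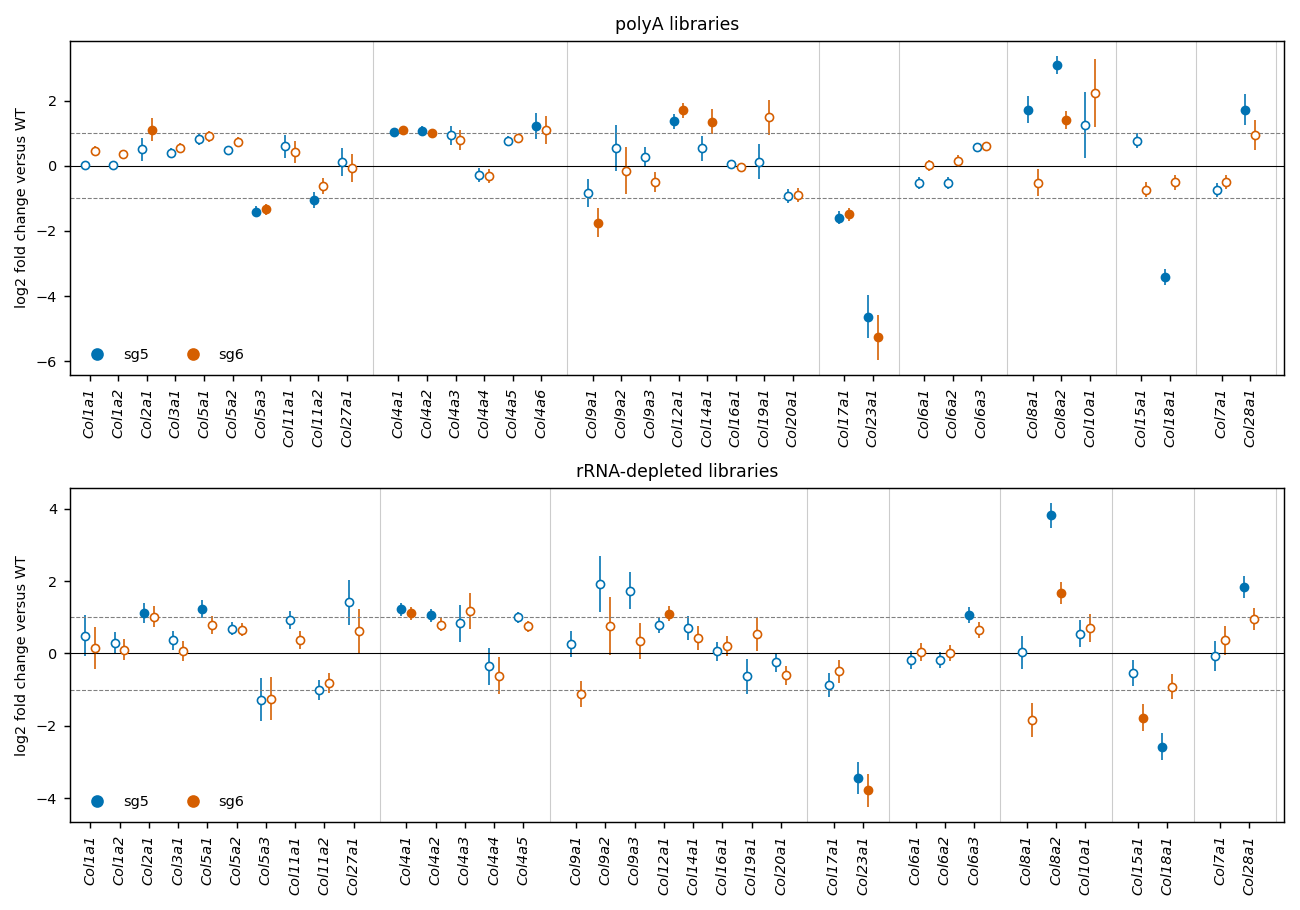
Log2 fold change of each tested collagen against WT, with sg5 and sg6 side by side, in polyA and rRNA-depleted libraries, grouped by class. Points are estimates of edgeR from 3 libraries a group, bars are standard errors, filled points passed the threshold, and the dashed lines mark log2 fold changes of 1 and -1. *Col4a1* and *Col4a2* lie near 1 in both clones, *Col8a2* lies above it, and *Col23a1* is the lowest point of each polyA comparison with WT.

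Collagens took 2.69% ± 0.186 (SD) of all counts in WT polyA libraries, 2.88% ± 0.111 in sg5 and 3.36% ± 0.415 in sg6. In rRNA-depleted libraries the shares were 0.756% ± 0.0208, 1.02% ± 0.197 and 0.89% ± 0.155. Of the 44 members, 27 reached a mean of 10 CPM in a polyA group and 17 reached 100 CPM. Per length of exon, the most abundant chains of WT polyA libraries were *Col1a1* at 871 CPM per kb, *Col6a1* at 524, *Col1a2* at 501 and *Col3a1* at 310.2. In WT rRNA-depleted libraries the order differed, with *Col3a1* at 208 CPM per kb, *Col6a1* at 173 and *Col1a2* at 83.3. Exon length here counts every annotated exon of a gene, so it can exceed any transcript. It is 12426 bases for *Col1a2* and 9816 for *Col3a1*, against 5348 and 5564 in their longest transcripts. For *Col1a1* it is 6563 against 5930, and for *Col6a1* 4380 against 4100. The order of the chains depends on this choice, and the ratios per length below use the same lengths. The tables were normalized separately, so levels were tested only within a kind of library.

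**Figure D2:**
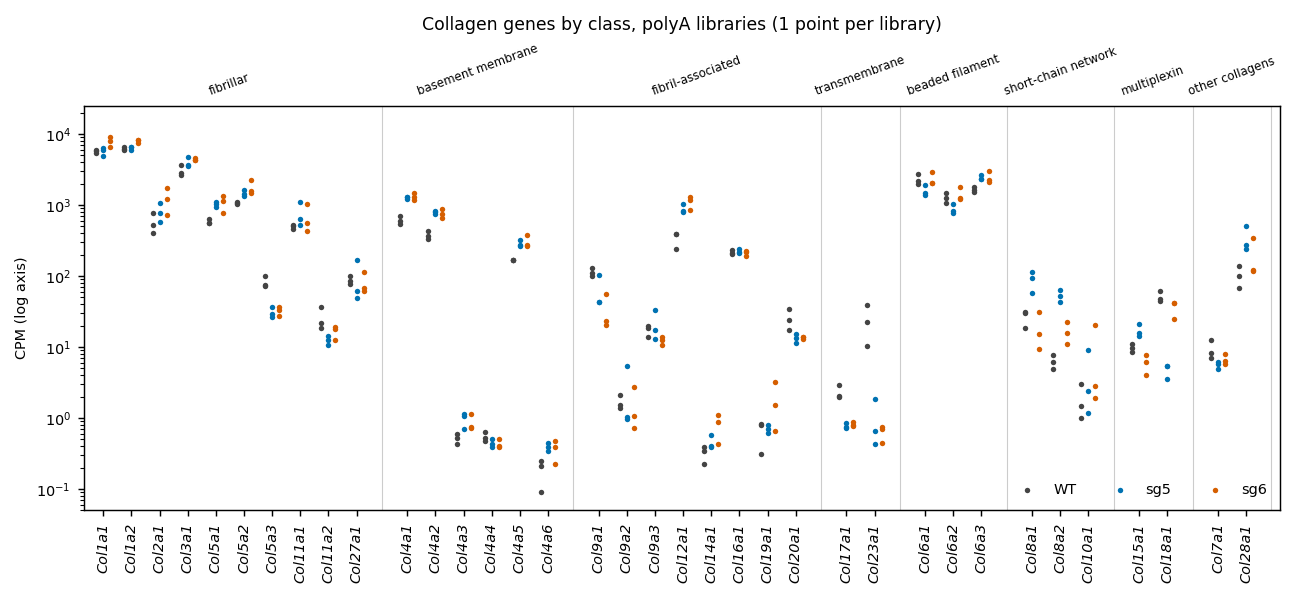
CPM of the 36 tested collagens in the 9 polyA libraries on a log axis, grouped by class, with 1 point per library and a color per line. *Col1a1* ranges from 4892 to 8954 CPM, and the points of *Col8a2* and *Col18a1* separate by line.

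The main basement membrane chains rose in both clones. *Col4a1* and *Col4a2* encode the chains of the collagen IV trimer found in nearly all basement membranes. They lie head to head on mouse chromosome 8 in GRCm38, with *Col4a1* on the minus strand (bases 11198423 to 11312826) and *Col4a2* on the plus strand (bases 11312805 to 11449287), so that their annotated first exons share 22 bases. In polyA libraries *Col4a1* was at 602, 531 and 702 CPM in the WT libraries, 1310.3, 1279 and 1207 in sg5 and 1469.8, 1304 and 1179 in sg6. Every KO library lay above every WT library, and the clones overlapped. The log2 fold change was 1.05 ± 0.12 (adjusted p = 0.000349) in sg5 and 1.11 ± 0.12 (adjusted p = 0.000224) in sg6, where ± gives the standard error of a log2 fold change and, after a level or a ratio, the SD of 3 libraries. *Col4a2* was at 369.5, 329 and 430.2 CPM in the WT libraries, 831, 798 and 758 in sg5 and 872, 751 and 658 in sg6, again with no overlap between KO and WT. Its log2 fold change was 1.08 ± 0.13 (adjusted p = 0.000387) in sg5 and 1.01 ± 0.13 (adjusted p = 0.000485) in sg6. These estimates lie just past the threshold: without WT replicate 2, the log2 fold change of *Col4a1* in sg5 was 0.95 (adjusted p = 0.00263), and that of *Col4a2* was 0.99 (adjusted p = 0.00318) in sg5 and 0.92 (adjusted p = 0.00369) in sg6, where leaving out sg6 replicate 1 gave 0.90 (adjusted p = 0.00161). With counts thinned to the smallest library the log2 fold change of *Col4a2* was 0.98 in sg6.

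In rRNA-depleted libraries *Col4a1* was at 168, 207 and 163 CPM in the WT libraries, 390.2, 520.0 and 343 in sg5 and 418, 415 and 333 in sg6, with a log2 fold change of 1.22 ± 0.18 (adjusted p = 0.00113) in sg5 and 1.11 ± 0.17 (adjusted p = 0.00234) in sg6. *Col4a2* was at 87.6, 112 and 84.8 CPM in the WT libraries, 173, 255 and 167 in sg5 and 173, 174 and 145 in sg6. The KO libraries lay above the WT ones for both genes. *Col4a2* rose in sg5 by 1.06 ± 0.18 (adjusted p = 0.00409) on the log2 scale, and had a log2 fold change of 0.79 ± 0.18 (adjusted p = 0.0307) in sg6, under the fold threshold. The sg5 log2 fold change was 0.97 (adjusted p = 0.0329) without WT replicate 3 and 0.89 (adjusted p = 0.0211) without sg5 replicate 2, and with at least 10 counts in every library it was 0.98 (adjusted p = 0.00775). With genes tested alone, without transposable element loci, it was 0.99 (adjusted p = 0.00413). Per length, the ratio of *Col4a1* to *Col4a2* was 1.44 ± 0.0102 (SD, n = 3) in WT polyA libraries, 1.41 ± 0.0114 in sg5 and 1.54 ± 0.048 in sg6. In rRNA-depleted libraries it was 1.68 ± 0.0382, 1.88 ± 0.104 and 2.1 ± 0.0575, with every KO library above every WT library.

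*Col4a5*, whose chain joins *Col4a3* and *Col4a4* products in kidney and lung and *Col4a6* products in smooth muscle, lies beside *Col4a6* on chromosome X. It had polyA levels of 166, 169 and 169.7 CPM in the WT libraries, 319, 273 and 266 in sg5 and 374, 262 and 269.8 in sg6. All KO libraries lay above all WT libraries, but the log2 fold changes of 0.77 ± 0.14 (adjusted p = 0.00372) in sg5 and 0.84 ± 0.14 (adjusted p = 0.00186) in sg6 did not reach 1. In rRNA-depleted libraries it was at 182, 136 and 139.6 CPM in the WT libraries, 299.5, 329 and 286 in sg5 and 276, 262 and 230.4 in sg6, and the log2 fold changes were 1.0 ± 0.15 (adjusted p = 0.00146) in sg5, which rounds to the threshold but did not pass it, and 0.75 ± 0.15 (adjusted p = 0.0131). *Col4a6* was near the floor, at 0.21, 0.0915 and 0.245 CPM in the WT libraries, 0.385, 0.441 and 0.339 in sg5 and 0.222, 0.466 and 0.391 in sg6. It passed in sg5 with a log2 fold change of 1.23 ± 0.40 (adjusted p = 0.0483), and lost the call in 7 of the 9 fits that left out 1 library (WT replicate 1 or 2, any sg5 replicate, or sg6 replicate 2 or 3), with an adjusted p of up to 0.219. *Col4a3* and *Col4a4*, neighbors on chromosome 1, ran from 0.385 to 1.15 CPM in polyA libraries and passed in no comparison. *Col4a3* was at 0.594, 0.515 and 0.423 CPM in the WT libraries, 1.08, 0.694 and 1.15 in sg5 and 1.15, 0.723 and 0.746 in sg6. Every KO library lay above every WT library, with a log2 fold change of 0.94 ± 0.29 (adjusted p = 0.0369) in sg5. *Col4a4* had a log2 fold change of -0.28 ± 0.21 (adjusted p = 0.358) in sg5. These values are given after they were seen. The median log2 fold change of the class was 1.0 in sg5 and 0.93 in sg6 over 6 genes tested. The summed level of the 6 genes was 1158 ± 137 CPM in WT, 2349 ± 115 CPM in sg5 and 2382 ± 309.8 CPM in sg6, ratios to WT of 2.03 and 2.06. In rRNA-depleted libraries these ratios were 2.16 and 1.89.

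**Figure D3:**
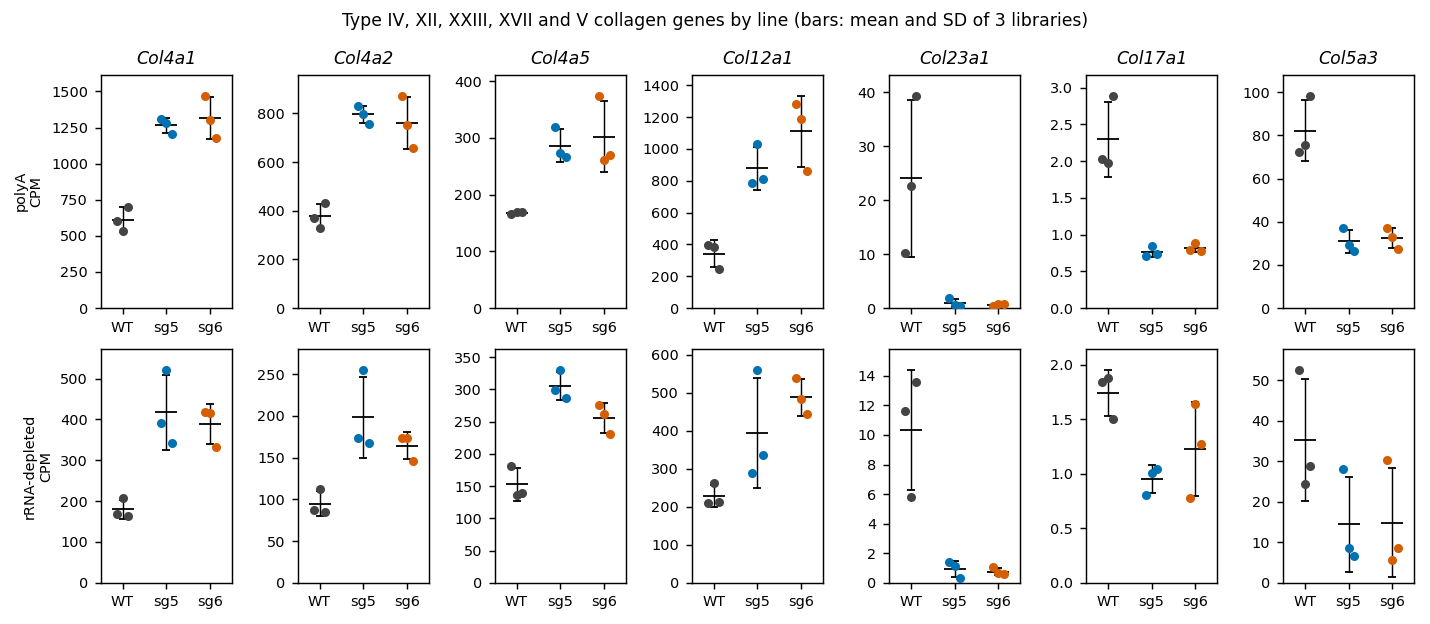
CPM of *Col4a1*, *Col4a2*, *Col4a5*, *Col12a1*, *Col23a1*, *Col17a1* and *Col5a3* in every library of WT, sg5 and sg6, with polyA and rRNA-depleted libraries side by side. Points are libraries, and bars give the mean and SD of 3. In polyA libraries the KO points of the first 4 genes lie above the WT points and those of the last 3 lie below them.

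The 2 transmembrane collagens tested, of 4 listed, fell in both clones in polyA (100% in each, against 6.96% of all genes tested in sg5 and 7.54% in sg6). *Col23a1*, a transmembrane collagen that can be shed from the cell surface, was at 10.3, 22.6 and 39.4 CPM in the WT libraries, 1.86, 0.646 and 0.426 in sg5 and 0.444, 0.691 and 0.746 in sg6. The WT libraries differed widely among themselves, and all lay above all KO libraries. The log2 fold change was -4.63 ± 0.65 (adjusted p = 0.000939) in sg5 and -5.27 ± 0.69 (adjusted p = 0.000583) in sg6. In rRNA-depleted libraries it was at 11.6, 5.79 and 13.6 CPM in the WT libraries, 1.39, 1.11 and 0.348 in sg5 and 1.03, 0.634 and 0.57 in sg6, and fell by 3.45 (SE 0.45) on the log2 scale in sg5 (adjusted p = 0.000538) and by 3.79 (SE 0.46) in sg6 (adjusted p = 0.000319). All 4 calls held in every fit that left out 1 library. The gene is on the plus strand of chromosome 11. The 250 bases before its annotated start, at chr11:51289670-51289919 (GRCm38.p6, from RefSeq), are shown because this was the collagen with the largest decrease, and capitals mark the GC box GGGCGG or its reverse complement CCGCCC.
Col23a1: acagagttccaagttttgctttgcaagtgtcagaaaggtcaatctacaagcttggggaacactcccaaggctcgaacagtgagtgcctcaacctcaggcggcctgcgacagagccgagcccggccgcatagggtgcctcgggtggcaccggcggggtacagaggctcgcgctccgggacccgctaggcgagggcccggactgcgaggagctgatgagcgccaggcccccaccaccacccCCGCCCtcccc

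*Col17a1*, the transmembrane collagen of hemidesmosomes, which anchor epithelial cells to the basement membrane, was low throughout, at 2.03, 1.98 and 2.89 CPM in the WT libraries, 0.713, 0.842 and 0.734 in sg5 and 0.784, 0.884 and 0.781 in sg6. Every KO library lay below every WT library, and the log2 fold change was -1.59 ± 0.19 (adjusted p = 0.000436) in sg5 and -1.49 ± 0.20 (adjusted p = 0.000653) in sg6. For rRNA-depleted RNA its log2 fold changes were -0.87 ± 0.33 (adjusted p = 0.193) and -0.49 ± 0.32 (adjusted p = 0.613), and passed in neither clone. Of the 3 epithelial markers tested in polyA, 3 fell in sg5 and 2 in sg6 (100% and 66.7% against 6.96% and 7.54% of all genes tested). The summed CPM of the 8 listed was 3.16 to 6.29 in WT polyA libraries, 0.903 to 1.73 in sg5 and 0.385 to 0.884 in sg6, and *Cdh1* fell by 1.64 and 3.23 on the log2 scale (adjusted p = 0.00668 and 0.000307). The epithelial genes *Epcam*, *Krt5*, *Krt18* and *Cldn4* had means under 0.1 CPM in every polyA group, and the part of any epithelial cells in these results was not tested. *Col13a1* and *Col25a1*, collagens of the neuromuscular junction and of neurons, had too few counts to be tested. The summed transmembrane level was 0.0672 of WT in sg5 and 0.055 in sg6, and 0.156 and 0.162 in rRNA-depleted libraries. In WT, *Col23a1* makes up most of it.

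Of the 10 fibrillar collagens tested in polyA, 2 fell in sg5 (20% against 6.96% of all genes tested), and 1 rose and 1 fell in sg6 (10% and 10% against 3.64% and 7.54% of all genes tested). In rRNA-depleted libraries 2 rose in sg5 (20% against 3.04%), and no other fibrillar comparison with WT passed. *Col1a1* and *Col1a2* encode the chains of type I collagen, the main fiber of bone, skin and tendon. *Col1a1* was at 6039, 5344 and 5773 CPM in the WT libraries, 4892, 6394 and 6033 in sg5 and 7863, 8954 and 6580.4 in sg6, so sg5 overlapped WT and all sg6 libraries lay above WT. Its log2 fold change was 0.01 ± 0.14 (adjusted p = 0.958) in sg5 and 0.45 ± 0.14 (adjusted p = 0.0417) in sg6. *Col1a2* was at 6003, 6129 and 6556 CPM in the WT libraries, 5898, 6649 and 6571 in sg5 and 8318, 8327 and 7366 in sg6, with log2 fold changes of 0.03 ± 0.10 (adjusted p = 0.842) in sg5 and 0.36 ± 0.10 (adjusted p = 0.0228) in sg6. Neither chain reached a log2 fold change of 1. In rRNA-depleted libraries *Col1a1* ran from 85.5 CPM in sg5 replicate 1 to 773 in sg5 replicate 2, a spread wider than any difference between lines, and no type I comparison passed there. The ratio of *Col1a1* to *Col1a2* per length was 1.74 ± 0.142 in WT, 1.71 ± 0.128 in sg5 and 1.84 ± 0.177 in sg6 polyA libraries, and 0.464 ± 0.0733, 0.452 ± 0.255 and 0.479 ± 0.145 in rRNA-depleted ones. The mature trimer holds a pair of *Col1a1* chains for each *Col1a2* chain, but the RNA ratios cannot be set against that. Their exon lengths are 6563 and 12426 bases, and their longest transcripts have 5930 and 5348. The ratio depends on which length is used. *Col3a1*, the homotrimeric type III chain that often shares fibers with type I, was at 3045 ± 559 CPM in WT, 3979 ± 659.5 CPM in sg5 and 4443 ± 176 CPM in sg6 (SD, n = 3), with log2 fold changes of 0.39 ± 0.15 (adjusted p = 0.0943) in sg5 and 0.55 ± 0.15 (adjusted p = 0.0255) in sg6.

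Type V chains start and limit the growth of type I fibers. *Col5a1* was at 633, 549 and 559 CPM in the WT libraries, 1043, 1088 and 941 in sg5 and 1355, 1123 and 764 in sg6, with every KO library above WT and log2 fold changes of 0.82 ± 0.18 (adjusted p = 0.0099) in sg5 and 0.90 ± 0.18 (adjusted p = 0.0055) in sg6, under the fold threshold. *Col5a2* was at 1067 ± 30 CPM in WT, 1475 ± 141 CPM in sg5 and 1766 ± 408 CPM in sg6, with log2 fold changes of 0.47 ± 0.15 (adjusted p = 0.0475) in sg5 and 0.73 ± 0.15 (adjusted p = 0.00629) in sg6. *Col5a3*, the least abundant chain, fell in both clones. It was at 72.3, 75.8 and 98.4 CPM in the WT libraries, 37, 29.3 and 26.6 in sg5 and 37.1, 32.8 and 27.6 in sg6, with no KO library above any WT library. The log2 fold change was -1.41 ± 0.17 (adjusted p = 0.000395) in sg5 and -1.34 ± 0.17 (adjusted p = 0.000475) in sg6, and both calls held in every fit that left out 1 library.

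In rRNA-depleted libraries *Col5a1* was at 199, 233 and 159 CPM in the WT libraries, 316, 704 and 352 in sg5 and 355, 338 and 320.0 in sg6, and it rose in sg5 by 1.22 ± 0.25 (adjusted p = 0.0153) on the log2 scale. It had a log2 fold change of 0.78 ± 0.25 (adjusted p = 0.155) in sg6. Without WT replicate 3 the sg5 log2 fold change was 1.07 (adjusted p = 0.0952), and without sg5 replicate 2 it was 0.81 (adjusted p = 0.0451). *Col5a3* was at 52.4, 24.4 and 28.8 CPM in the WT libraries, 28, 8.58 and 6.61 in sg5 and 30.2, 5.55 and 8.54 in sg6 there. Replicate 1 of each line was the highest, the groups overlapped, and the log2 fold changes of -1.28 ± 0.59 (adjusted p = 0.294) in sg5 and -1.25 ± 0.59 (adjusted p = 0.411) in sg6 did not pass.

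*Col2a1*, the main chain of cartilage fibers, was at 778, 525 and 405 CPM in the WT libraries, 1078, 769 and 570.5 in sg5 and 1760.5, 1214 and 724 in sg6. The clones overlapped WT in polyA, and sg6 passed with a log2 fold change of 1.11 ± 0.36 (adjusted p = 0.0421), while sg5 had a log2 fold change of 0.50 ± 0.35 (adjusted p = 0.335). The sg6 call was lost without WT replicate 2 or 3, sg5 replicate 2, or sg6 replicate 1 or 2, with log2 fold changes from 0.76 to 1.12 and adjusted p from 0.0587 to 0.155. In rRNA-depleted libraries *Col2a1* was at 289, 333 and 205 CPM in the WT libraries, 418, 959 and 433 in sg5 and 641, 534 and 499.9 in sg6, with all KO libraries above WT. There it passed in sg5 with a log2 fold change of 1.13 ± 0.28 (adjusted p = 0.0397) and had a log2 fold change of 1.02 ± 0.28 (adjusted p = 0.0795) in sg6. The sg5 call was lost without any of the WT replicates or without sg5 replicate 2, with adjusted p from 0.0638 to 0.183.

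*Col11a1* and *Col11a2* encode chains of type XI collagen, which nucleates cartilage fibers. *Col11a1* was at 529, 508 and 459.6 CPM in the WT libraries, 1103, 641 and 517 in sg5 and 1024, 554 and 423 in sg6, with replicate 1 of each KO line far above the others, and log2 fold changes of 0.59 ± 0.34 (adjusted p = 0.236) in sg5 and 0.42 ± 0.34 (adjusted p = 0.395) in sg6. *Col11a2* was at 18.7, 21.8 and 36.2 CPM in the WT libraries, 12.4, 10.6 and 14.2 in sg5 and 12.6, 17.6 and 19.2 in sg6. All sg5 libraries lay below all WT libraries, and it fell in sg5 with a log2 fold change of -1.05 ± 0.25 (adjusted p = 0.0148). It had a log2 fold change of -0.63 ± 0.25 (adjusted p = 0.0881) in sg6. The sg5 log2 fold change was -0.71 (adjusted p = 0.0302) without WT replicate 3 and -0.94 (adjusted p = 0.0584) without sg5 replicate 2. *Col27a1*, a fibrillar collagen of cartilage, was at 83.8, 75.9 and 98.4 CPM in the WT libraries, 169.6, 49.2 and 61.1 in sg5 and 114, 61.7 and 68.5 in sg6, again highest in replicate 1 of each KO line, with log2 fold changes of 0.12 ± 0.43 (adjusted p = 0.869) in sg5 and -0.08 ± 0.43 (adjusted p = 0.906) in sg6. *Col24a1* had too few counts to be tested. Over the 10 fibrillar genes tested the median log2 fold change was 0.25 in sg5 and 0.43 in sg6. The summed fibrillar level was 17902 ± 851 CPM in WT, 20319 ± 563 CPM in sg5 and 25123 ± 2933 CPM in sg6, ratios to WT of 1.14 and 1.4, and the type I and III chains are its largest terms. In rRNA-depleted libraries the ratios were 1.47 and 1.23, and the median log2 fold changes 0.59 and 0.26, so the order of the clones was the other way around.

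**Figure D4:**
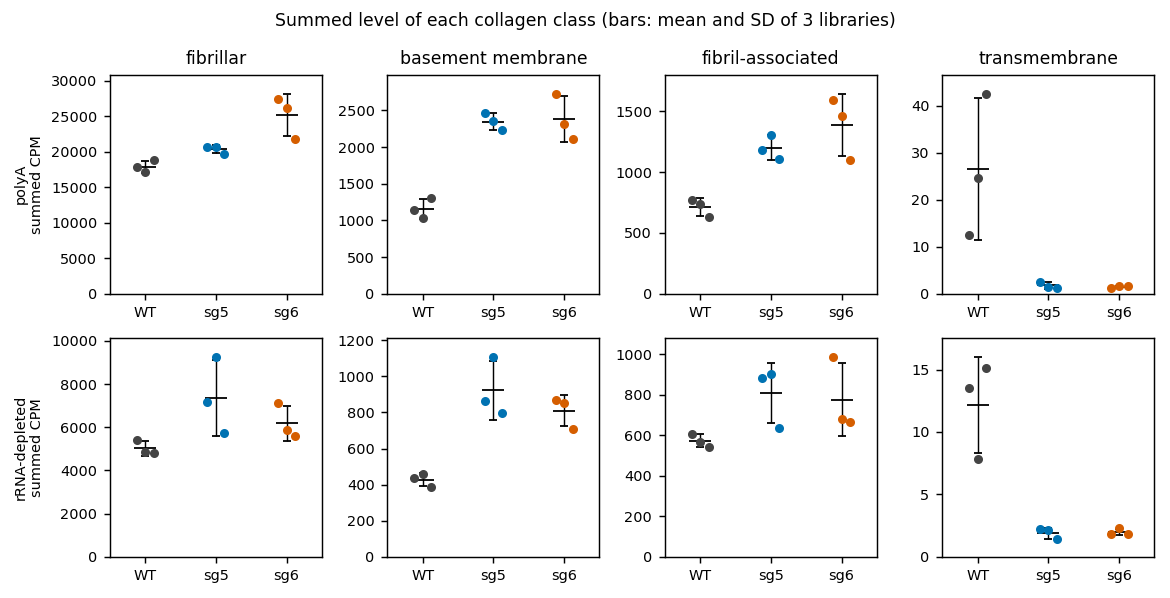
Summed CPM of the fibrillar, basement membrane, fibril-associated and transmembrane collagens in every library, polyA and rRNA-depleted. Points are libraries, and bars give the mean and SD of 3. The basement membrane sum of every KO library is above every WT library and the transmembrane sum is below, with sg5 and sg6 at similar values.

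Of the fibril-associated collagens, *Col12a1* rose in both clones in polyA. It coats type I fibers in tendon, ligament and other dense tissue. It was at 396, 384 and 243 CPM in the WT libraries, 788, 1029.6 and 813 in sg5 and 1284, 1189 and 860.0 in sg6, with every KO library above every WT library. It rose by 1.36 ± 0.22 (adjusted p = 0.0019) on the log2 scale in sg5 and by 1.70 ± 0.22 (adjusted p = 0.00051) in sg6, and both calls held whichever library was left out. Its rRNA-depleted levels were 211, 261 and 212 CPM in the WT libraries, 288, 559 and 337 in sg5 and 540.0, 483 and 443 in sg6, and it rose in sg6 with a log2 fold change of 1.1 ± 0.21 (adjusted p = 0.0107). In sg5 it had a log2 fold change of 0.79 ± 0.21 (adjusted p = 0.0555), and the log2 fold change between the clones was -0.31 ± 0.21 (adjusted p = 0.77). Without WT replicate 3 the sg6 log2 fold change was 1.04 (adjusted p = 0.0704). *Col14a1*, a close relative of *Col12a1* in sequence and site, had polyA levels of 0.384, 0.343 and 0.222 CPM in the WT libraries, 0.575, 0.397 and 0.395 in sg5 and 1.11, 0.868 and 0.426 in sg6. The sg6 libraries lay above WT, by 1.35 ± 0.39 (adjusted p = 0.0263) on the log2 scale, while sg5 had a log2 fold change of 0.53 ± 0.38 (adjusted p = 0.343). The sg6 call was lost without WT replicate 2 or 3 or sg6 replicate 1 or 2, with log2 fold changes from 1.04 to 1.45 and adjusted p from 0.0741 to 0.0979. 

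Type IX chains decorate the type II fibers of cartilage. *Col9a1* was at 128, 110.3 and 98.5 CPM in the WT libraries, 103, 42.8 and 42.4 in sg5 and 55.7, 23.4 and 20.5 in sg6. The sg6 libraries all lay below WT and the sg5 libraries overlapped it, with replicate 1 the highest of each line. It fell in sg6 with a log2 fold change of -1.75 ± 0.44 (adjusted p = 0.0159) and had a log2 fold change of -0.84 ± 0.43 (adjusted p = 0.185) in sg5. The sg6 log2 fold change was -1.56 (adjusted p = 0.0634) without sg6 replicate 2 and -1.5 (adjusted p = 0.0518) without sg6 replicate 3. In rRNA-depleted libraries *Col9a1* had a log2 fold change of 0.26 ± 0.36 (adjusted p = 0.778) in sg5 and -1.12 ± 0.36 (adjusted p = 0.155) in sg6. *Col9a3* was at 19.5, 13.8 and 18.4 CPM in the WT libraries, 32.6, 12.8 and 17.4 in sg5 and 13.7, 10.5 and 12.4 in sg6, with log2 fold changes of 0.28 ± 0.30 (adjusted p = 0.531) in sg5 and -0.49 ± 0.31 (adjusted p = 0.259) in sg6, and *Col9a2* stayed at or under 5.32 CPM in polyA and did not pass.

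*Col16a1*, found in small amounts beside fibers and microfibrils, had close levels in the 3 lines, at 216 ± 17.8 CPM in WT, 223 ± 16.5 CPM in sg5 and 212 ± 15.4 CPM in sg6, with log2 fold changes of 0.05 ± 0.09 (adjusted p = 0.748) in sg5 and -0.03 ± 0.09 (adjusted p = 0.853) in sg6. *Col20a1* was at 17.1, 24.1 and 34.6 CPM in the WT libraries, 15.2, 11.3 and 13.4 in sg5 and 13.7, 13 and 13.8 in sg6. All KO libraries lay below WT, and the log2 fold changes of -0.93 ± 0.22 (adjusted p = 0.0141) in sg5 and -0.90 ± 0.22 (adjusted p = 0.0144) in sg6 stayed short of 1. *Col19a1* was at or under 3.23 CPM in polyA and did not pass, and *Col22a1* was not tested. The median log2 fold change over the 8 genes tested was 0.20 in sg5 and -0.09 in sg6, and 0.48 and 0.39 in rRNA-depleted libraries. The summed level was 1.68 and 1.94 of WT in polyA, and 1.41 and 1.35 in rRNA-depleted libraries, with *Col12a1* the largest term in each line.

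Type VI collagen forms beaded microfilaments around cells from 1 chain each of *Col6a1*, *Col6a2* and *Col6a3*, or of *Col6a4*, *Col6a5* or *Col6a6* in place of *Col6a3*. *Col6a1* had polyA levels of 2174, 2002 and 2709.7 CPM in the WT libraries, 1886, 1393 and 1478 in sg5 and 2872, 2010.1 and 2036 in sg6. The sg5 libraries all lay below WT, with a log2 fold change of -0.53 ± 0.18 (adjusted p = 0.0582), and sg6 had a log2 fold change of 0.01 ± 0.18 (adjusted p = 0.982). *Col6a2*, its neighbor on chromosome 10, was at 1271, 1072 and 1456 CPM in the WT libraries, 1019.5, 783 and 813 in sg5 and 1771, 1247 and 1201 in sg6, with log2 fold changes of -0.54 ± 0.18 (adjusted p = 0.0533) in sg5 and 0.15 ± 0.18 (adjusted p = 0.565) in sg6. *Col6a3* was at 1621, 1531 and 1777 CPM in the WT libraries, 2623, 2332 and 2313 in sg5 and 3028, 2259 and 2108 in sg6. It stood 0.56 ± 0.14 (adjusted p = 0.0175) above WT on the log2 scale in sg5 and 0.59 ± 0.14 (adjusted p = 0.0127) in sg6, with all KO libraries above WT but under the fold threshold. In rRNA-depleted libraries *Col6a3* was at 335, 349.6 and 255 CPM in the WT libraries, 657, 863 and 436 in sg5 and 596, 456 and 437 in sg6 and rose in sg5 by 1.06 ± 0.22 (adjusted p = 0.016) on the log2 scale, with a log2 fold change of 0.66 ± 0.22 (adjusted p = 0.173) in sg6. The sg5 log2 fold change was 0.91 (adjusted p = 0.0949) without WT replicate 3 and 0.85 (adjusted p = 0.0818) without sg5 replicate 2, and with at least 10 counts in every library it was 0.98 (adjusted p = 0.0247). With genes tested alone, without transposable element loci, it was 0.98 (adjusted p = 0.0132). Per length, *Col6a3* stood to *Col6a1* as 0.264 ± 0.0213 in WT, 0.565 ± 0.0523 in sg5 and 0.392 ± 0.017 in sg6 polyA libraries, and as 0.153 ± 0.0328, 0.37 ± 0.118 and 0.243 ± 0.0404 in rRNA-depleted libraries. The ratio of *Col6a1* to *Col6a2* was 3.45 ± 0.169, 3.45 ± 0.0665 and 3.12 ± 0.0861 in polyA.

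The short-chain collagens *Col8a1* and *Col8a2*, which build open lattices under endothelial cells of the cornea and in vessel walls, separated the 2 KO clones. *Col8a2* was at 7.72, 6.1 and 4.87 CPM in the WT libraries, 62.9, 52.7 and 43 in sg5 and 22.2, 15.7 and 11 in sg6, so the 3 lines did not overlap. It rose by 3.09 ± 0.28 (adjusted p = 8.32e-05) on the log2 scale in sg5 and by 1.40 ± 0.27 (adjusted p = 0.0041) in sg6, and was higher in sg5 than in sg6 by 1.70 ± 0.26 (adjusted p = 0.00595) on the log2 scale. Its rRNA-depleted levels were 10.7, 6.6 and 7.13 CPM in the WT libraries, 62.2, 164 and 118 in sg5 and 33.6, 22.4 and 22 in sg6, in the same order and without overlap. The log2 fold changes there were 3.82 ± 0.34 (adjusted p = 2.21e-05), 1.68 ± 0.31 (adjusted p = 0.00833) and, between the clones, 2.14 ± 0.31 (adjusted p = 0.00506). Of these 6 calls, 1 rested on a single library, that of sg6 in rRNA-depleted RNA, with a log2 fold change of 1.58 (adjusted p = 0.0677) without WT replicate 3. 

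*Col8a1* was at 31.2, 30.3 and 18.7 CPM in the WT libraries, 115, 92.6 and 57.4 in sg5 and 31.1, 15.2 and 9.45 in sg6. All sg5 libraries lay above all others, and sg6 overlapped WT. It rose in sg5 with a log2 fold change of 1.72 ± 0.42 (adjusted p = 0.0155), had a log2 fold change of -0.52 ± 0.42 (adjusted p = 0.384) in sg6, and differed between the clones by 2.24 ± 0.43 (adjusted p = 0.0178) on the log2 scale. Without sg5 replicate 1, the log2 fold change of sg5 against WT was 1.49 (adjusted p = 0.0502). Between the clones the log2 fold change was 2.01 (adjusted p = 0.0575) without sg5 replicate 1, 2.21 (adjusted p = 0.0539) without sg5 replicate 2 and 2.12 (adjusted p = 0.0971) without sg6 replicate 2. In rRNA-depleted libraries *Col8a1* was at 20.2, 24.7 and 18 CPM in the WT libraries, 8.77, 27.6 and 27.8 in sg5 and 3.58, 11 and 2.98 in sg6. There sg5 overlapped WT, with a log2 fold change of 0.03 ± 0.45 (adjusted p = 0.988), and all sg6 libraries lay below WT, with a log2 fold change of -1.83 ± 0.47 (adjusted p = 0.0569), and no comparison of *Col8a1* passed. The ratio of *Col8a1* to *Col8a2* per length was 2.45 ± 0.342 in WT, 0.939 ± 0.152 in sg5 and 0.618 ± 0.165 in sg6 polyA libraries, and 1.56 ± 0.544, 0.104 ± 0.028 and 0.14 ± 0.123 in rRNA-depleted ones.

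The windows of 250 bases before the starts of both genes are shown because their chains can assemble together while only *Col8a2* passed in both clones. They are *Col8a1* at chr16:57754738-57754987, minus strand, and *Col8a2* at chr4:126286544-126286793, plus strand (GRCm38.p6, from RefSeq), each read toward the gene, with GC boxes (GGGCGG or CCGCCC) in capitals.
Col8a1: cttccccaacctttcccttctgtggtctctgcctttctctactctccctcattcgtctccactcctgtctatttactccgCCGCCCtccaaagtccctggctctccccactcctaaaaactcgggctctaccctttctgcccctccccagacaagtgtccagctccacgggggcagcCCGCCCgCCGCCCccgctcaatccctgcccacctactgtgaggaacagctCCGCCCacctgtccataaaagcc
Col8a2: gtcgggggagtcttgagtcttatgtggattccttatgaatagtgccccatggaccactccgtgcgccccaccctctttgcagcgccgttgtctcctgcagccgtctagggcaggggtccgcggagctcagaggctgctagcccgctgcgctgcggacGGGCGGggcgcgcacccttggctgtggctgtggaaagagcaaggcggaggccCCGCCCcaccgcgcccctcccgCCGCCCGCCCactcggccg
Each window holds 4 GC box matches, overlapping ones counted, and neither holds a TATA box (TATAAA or TTTATA) or a CCAAT box (CCAAT or ATTGG). Of the 32841 windows of this kind over all genes, 32.7% hold a GC box, 33.9% a CCAAT box and 12.4% a TATA box. The 38 windows found for 35 collagens had a GC box in 57.9%, a CCAAT box in 34.2% and a TATA box in 13.2%. Their median GC content was 59%, against 52.4% over all windows. A match says only that these letters occur in the window.

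*Col10a1*, the collagen of hypertrophic cartilage, was at 3, 1.46 and 1 CPM in the WT libraries, 9.19, 2.36 and 1.17 in sg5 and 20.2, 2.84 and 1.92 in sg6. Replicate 1 of each KO line stood far above the other libraries, and the log2 fold changes of 1.26 ± 1.01 (adjusted p = 0.398) in sg5 and 2.24 ± 1.04 (adjusted p = 0.135) in sg6 did not pass. The cartilage proteoglycan *Acan* was also highest in replicate 1 of each KO line, while its other KO libraries lay below WT, at 2.69, 2.06 and 1.02 CPM in the WT libraries, 5.69, 0.51 and 0.345 in sg5 and 6.85, 0.241 and 0.16 in sg6, and *Col9a2*, *Col11a1* and *Col27a1* were also highest in replicate 1 of both KO lines. These genes, other than *Col11a1* and *Col27a1*, were picked out after their values were seen. Of 6 cartilage markers tested in polyA, 1 passed, lower in sg5 (16.7% against 6.96% of all genes tested). It was *Hapln1*, with a log2 fold change of -2.52 ± 0.72 (adjusted p = 0.0301) in sg5 and -1.05 ± 0.69 (adjusted p = 0.289) in sg6. Of 4 tested in rRNA-depleted libraries, *Sox9*, the regulator of cartilage genes, rose and *Hapln1* fell in sg5 (25% and 25% against 3.04% and 4.31% of all genes tested). *Sox9* had log2 fold changes of 1.40 ± 0.29 (adjusted p = 0.015) in sg5 and 0.56 ± 0.29 (adjusted p = 0.469) in sg6 there, and *Hapln1* had -2.88 ± 0.31 (adjusted p = 0.0001) in sg5 and -1.12 ± 0.28 (adjusted p = 0.0513) in sg6. The part of these markers in the *Col2a1* result was not tested. Among 6 bone markers tested in polyA, 2 fell in sg5 (*Phex* and *Sp7*) and 3 in sg6 (the same genes and *Dmp1*). These are 33.3% and 50%, against 6.96% and 7.54% of all genes tested. *Dmp1* was named after its values were seen. In rRNA-depleted libraries *Phex* fell in both clones, 1 of 3 tested (33.3% against 4.31% in sg5 and 3.59% in sg6). The part of bone markers in the collagen results was not tested. 

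The multiplexins *Col15a1* and *Col18a1* lie at the border of basement membranes, and the *Col18a1* product is the source of the fragment endostatin. *Col18a1*, on the minus strand of chromosome 10 (77052178 to 77166548), was at 44.8, 47.1 and 61 CPM in the WT libraries, 3.59, 5.33 and 5.35 in sg5 and 25, 41.9 and 41.1 in sg6. The sg5 libraries stood far below the other lines, and all sg6 libraries lay below all WT libraries. It fell in sg5 by 3.42 (SE 0.25) on the log2 scale (adjusted p = 2.52e-05), had a log2 fold change of -0.50 ± 0.23 (adjusted p = 0.125) in sg6, and was lower in sg5 than in sg6, with a log2 fold change of -2.92 ± 0.24 (adjusted p = 0.000164). Its rRNA-depleted levels were 7.05, 12.3 and 11 CPM in the WT libraries, 0.693, 2.28 and 2.16 in sg5 and 5.26, 4.73 and 6.09 in sg6, with a log2 fold change of -2.58 ± 0.37 (adjusted p = 0.00114) in sg5, -0.92 ± 0.34 (adjusted p = 0.243) in sg6 and -1.66 ± 0.37 (adjusted p = 0.0881) between the clones. The calls of *Col18a1* held whichever library was left out. *Col18a1* has several starts, and the tables give 1 count for all of them. The windows before 2 annotated starts, at chr10:77166531-77166780 and chr10:77113706-77113955, minus strand (GRCm38.p6, from RefSeq), are printed to show how they differ, with CCAAT and GC boxes in capitals.
Col18a1 upstream start: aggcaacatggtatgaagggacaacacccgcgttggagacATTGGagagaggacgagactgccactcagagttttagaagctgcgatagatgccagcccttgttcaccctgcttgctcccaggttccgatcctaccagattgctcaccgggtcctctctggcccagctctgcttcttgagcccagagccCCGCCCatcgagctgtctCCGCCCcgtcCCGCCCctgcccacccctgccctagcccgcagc
Col18a1 downstream start: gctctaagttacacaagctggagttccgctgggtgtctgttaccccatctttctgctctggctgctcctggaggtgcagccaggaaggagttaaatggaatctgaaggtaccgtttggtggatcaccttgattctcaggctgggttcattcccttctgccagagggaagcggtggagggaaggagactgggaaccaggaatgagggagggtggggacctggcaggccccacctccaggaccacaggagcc
The first holds 3 GC box matches and 1 CCAAT match, and the window of the downstream start, which lies inside the gene, holds none of the 3 motifs.

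*Col15a1* was at 8.59, 11 and 9.81 CPM in the WT libraries, 14.1, 15.5 and 20.7 in sg5 and 4.01, 6.15 and 7.62 in sg6. The sg5 libraries lay above WT and the sg6 libraries below it, with log2 fold changes of 0.77 ± 0.23 (adjusted p = 0.0359) in sg5 and -0.73 ± 0.24 (adjusted p = 0.0434) in sg6, neither beyond 1. The clones differed by 1.5 ± 0.24 (adjusted p = 0.00668) on the log2 scale, a call that held whichever library was left out. Its rRNA-depleted levels were 2.5, 2.54 and 2.37 CPM in the WT libraries, 2.66, 1.23 and 1.16 in sg5 and 0.517, 0.708 and 0.92 in sg6, so levels were low. It fell in sg6 with a log2 fold change of -1.78 ± 0.37 (adjusted p = 0.0177), and had a log2 fold change of -0.54 ± 0.35 (adjusted p = 0.477) in sg5 and 1.24 ± 0.38 (adjusted p = 0.325) between the clones. The sg6 call was lost without any of the WT replicates or sg6 replicate 1 or 2, with log2 fold changes from -1.82 to -1.57 and adjusted p from 0.0634 to 0.0862.

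**Figure D5:**
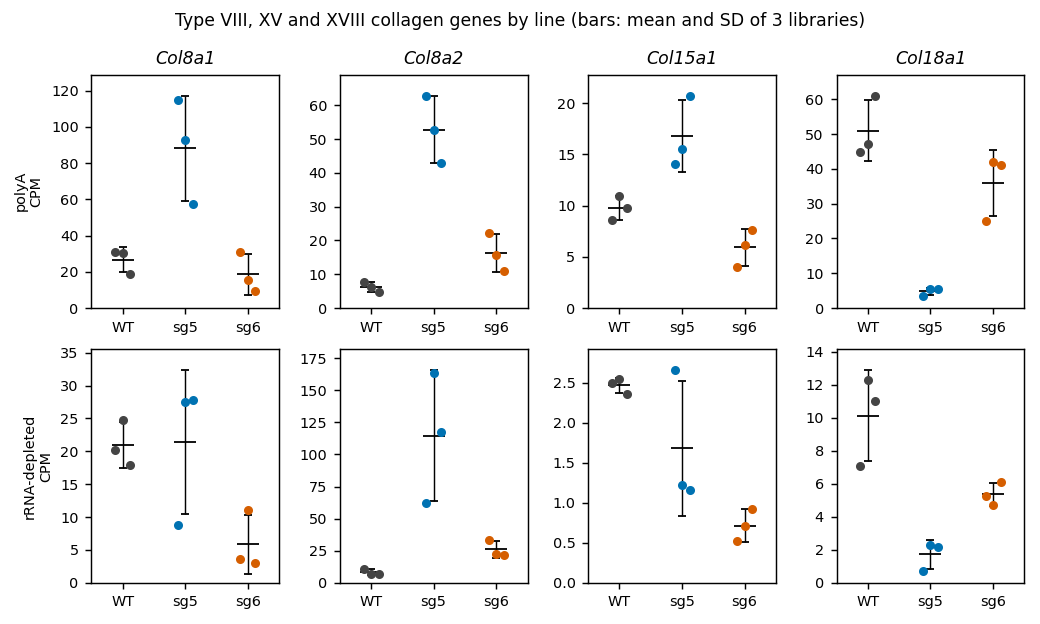
CPM of *Col8a1*, *Col8a2*, *Col15a1* and *Col18a1* in every library of WT, sg5 and sg6, polyA and rRNA-depleted. Points are libraries, and bars give the mean and SD of 3. In polyA libraries sg5 lies above sg6 for the first 3 genes and below it for *Col18a1*.

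*Col28a1*, a collagen with von Willebrand factor A domains that resembles type VI, had polyA levels of 139, 99.7 and 67.4 CPM in the WT libraries, 499.6, 272 and 236 in sg5 and 346, 121 and 118 in sg6. All sg5 libraries lay above WT and sg6 overlapped it. It rose in sg5 with a log2 fold change of 1.72 ± 0.48 (adjusted p = 0.0258) and had a log2 fold change of 0.94 ± 0.47 (adjusted p = 0.161) in sg6. The polyA call was lost without WT replicate 2, WT replicate 3 or sg5 replicate 1, with log2 fold changes of 1.70 (adjusted p = 0.085), 1.5 (adjusted p = 0.0775) and 1.31 (adjusted p = 0.0872). In rRNA-depleted libraries it was at 98.8, 59 and 67.1 CPM in the WT libraries, 281, 297 and 225 in sg5 and 236, 105 and 91.6 in sg6, with a log2 fold change of 1.84 ± 0.31 (adjusted p = 0.00365) in sg5 and 0.95 ± 0.30 (adjusted p = 0.153) in sg6, and the sg5 call there held whichever library was left out. *Col7a1*, which forms the anchoring fibrils below skin epithelium, had polyA levels of 7.09, 8.24 and 12.7 CPM in the WT libraries, 4.83, 5.81 and 6.12 in sg5 and 6.36, 7.89 and 5.74 in sg6, with log2 fold changes of -0.74 ± 0.22 (adjusted p = 0.0357) in sg5 and -0.49 ± 0.22 (adjusted p = 0.131) in sg6. *Col7a1* was named after its values were seen.

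Too few counts were found to test *Col6a4*, *Col6a5*, *Col6a6*, *Col13a1*, *Col22a1*, *Col24a1*, *Col25a1* and *Col26a1* in either kind of library, with at most 15 counts in a polyA library. *Col4a6* was also not tested in rRNA-depleted libraries, where the untested genes had at most 8 counts. Among them *Col6a5* had 0 counts in every rRNA-depleted library, which allows up to 3 counts in each, for counting error only. Differences in these genes were not detectable at this depth. No tested collagen shares more than 1.12% of its 31-base words with another gene. *Col4a1* and *Col4a2* overlap each other on opposite strands, and the sources used here do not state whether counting used strand.

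Collagen chains are made, cut, cross-linked and sensed by other proteins, and the same tests were read for lists of those genes. Of 20 enzymes and chaperones of collagen biosynthesis, all tested in polyA, 1 rose in sg5 (5% against 3.18% of all genes tested). *Colgalt2*, a collagen galactosyltransferase, rose in sg5 with a log2 fold change of 3.29 ± 0.97 (adjusted p = 0.0331) and had a log2 fold change of 1.91 ± 0.97 (adjusted p = 0.171) in sg6. It was named after its values were seen. In rRNA-depleted libraries it also rose in sg5 and did not pass in sg6, with log2 fold changes of 5.03 ± 0.83 (adjusted p = 0.00314) in sg5 and 2.54 ± 0.86 (adjusted p = 0.181) in sg6. The median log2 fold change of the list was 0.13 and 0.07. The most abundant members did not pass: *P4hb*, a subunit of prolyl 4-hydroxylase, had log2 fold changes of -0.31 ± 0.10 (adjusted p = 0.0537) in sg5 and -0.01 ± 0.10 (adjusted p = 0.933) in sg6, and *Serpinh1*, the collagen chaperone HSP47, had log2 fold changes of 0.22 ± 0.11 (adjusted p = 0.165) in sg5 and 0.33 ± 0.11 (adjusted p = 0.0514) in sg6.

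Of 12 tested genes of procollagen processing and cross-linking, 2 rose and 1 fell in sg5 in polyA (16.7% and 8.33% against 3.18% and 6.96% of all genes tested), and 1 rose and 1 fell in sg6 (8.33% and 8.33% against 3.64% and 7.54% of all genes tested). In rRNA-depleted libraries, 3 rose and 2 fell in sg5 (25% and 16.7% against 3.04% and 4.31% of all genes tested), and 2 rose and 1 fell in sg6 (16.7% and 8.33% against 2.16% and 3.59% of all genes tested). *Tll1*, a protease that removes the C-propeptide, was at 1.57, 1.97 and 1.25 CPM in the WT libraries, 8.14, 11.4 and 6.74 in sg5 and 6.7, 5.4 and 3.73 in sg6, and rose in both, with log2 fold changes of 2.44 ± 0.29 (adjusted p = 0.000375) in sg5 and 1.71 ± 0.29 (adjusted p = 0.00206) in sg6. The rRNA-depleted log2 fold changes were 2.00 ± 0.41 (adjusted p = 0.0137) in sg5 and 1.58 ± 0.41 (adjusted p = 0.0581) in sg6, and sg6 did not pass there. *Adamts14*, which removes the N-propeptide, was at 6.92, 6.89 and 7.87 CPM in the WT libraries, 2.7, 2.39 and 2.23 in sg5 and 1.23, 1.69 and 1.44 in sg6 and fell in both, with log2 fold changes of -1.57 ± 0.16 (adjusted p = 0.00016) in sg5 and -2.32 ± 0.17 (adjusted p = 2.15e-05) in sg6. It fell in both clones in rRNA-depleted libraries too, with -3.23 ± 0.42 (adjusted p = 0.000453) in sg5 and -2.05 ± 0.37 (adjusted p = 0.00623) in sg6 on the log2 scale. *Lox*, which starts the cross-links of fibers and was the most abundant gene of the list, was at 1088, 1181 and 889 CPM in the WT libraries, 1869.6, 2190.4 and 1668 in sg5 and 2782, 2014 and 1503 in sg6. All KO libraries lay above WT, and the log2 fold changes of 0.86 ± 0.21 (adjusted p = 0.0169) in sg5 and 1.0 ± 0.22 (adjusted p = 0.00741) in sg6 did not go beyond 1. It passed in rRNA-depleted libraries, with log2 fold changes of 1.40 ± 0.24 (adjusted p = 0.00399) in sg5 and 1.14 ± 0.24 (adjusted p = 0.0174) in sg6. *Pcolce*, an enhancer of C-propeptide removal, had log2 fold changes of -0.12 ± 0.11 (adjusted p = 0.466) in sg5 and -0.27 ± 0.11 (adjusted p = 0.0857) in sg6.

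Of 8 tested receptors for collagen, 1 rose and 1 fell in each clone in polyA (12.5% and 12.5% against 3.18% and 6.96% of all genes tested in sg5, and 3.64% and 7.54% of all genes in sg6). In rRNA-depleted libraries 1 rose in sg5, against 3.04% of all genes, and no other receptor passed against WT. *Itga11*, the collagen-binding integrin subunit of fibroblasts, was at 0.454, 0.389 and 0.2 CPM in the WT libraries, 18.2, 19.9 and 17.1 in sg5 and 3.15, 3.53 and 2.22 in sg6. It rose by 5.73 ± 0.28 (adjusted p = 3.6e-06) on the log2 scale in sg5 and 3.10 ± 0.27 (adjusted p = 6.04e-05) in sg6, and was higher in sg5 than in sg6 with a log2 fold change of 2.63 ± 0.22 (adjusted p = 0.000178). In rRNA-depleted libraries *Itga11* was low, at 0.0876, 0.258 and 0.195 CPM in the WT libraries, 0.885, 3.06 and 1.47 in sg5 and 0.172, 0.186 and 0.394 in sg6. It rose there in sg5, while sg6 did not pass, with log2 fold changes of 3.24 ± 0.56 (adjusted p = 0.00411) in sg5 and 0.42 ± 0.65 (adjusted p = 0.876) in sg6. *Adgrg1*, an adhesion receptor that binds type III collagen, was at 10.6, 12 and 13.6 CPM in the WT libraries, 7.96, 3.94 and 4.51 in sg5 and 3.73, 2.38 and 2.38 in sg6 and fell, with log2 fold changes of -1.14 ± 0.28 (adjusted p = 0.0159) in sg5 and -2.09 ± 0.29 (adjusted p = 0.000836) in sg6. *Adgrg1* was under 1 CPM in every rRNA-depleted library and passed in neither clone, with log2 fold changes of 0.15 ± 0.51 (adjusted p = 0.925) in sg5 and -2.08 ± 0.61 (adjusted p = 0.107) in sg6. The abundant receptors *Ddr2* and *Itgb1* stayed under the fold threshold. *Ddr2* had log2 fold changes of 0.06 ± 0.10 (adjusted p = 0.724) in sg5 and 0.12 ± 0.10 (adjusted p = 0.409) in sg6, and *Itgb1* had log2 fold changes of 0.68 ± 0.10 (adjusted p = 0.00141) in sg5 and 0.71 ± 0.10 (adjusted p = 0.000937) in sg6.

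The basement membrane partners of collagen IV are laminins, nidogens and proteoglycans. Of 14 tested in polyA, 1 rose and 1 fell in sg5 (7.14% and 7.14% against 3.18% and 6.96% of all genes tested), and 4 rose and 2 fell in sg6 (28.6% and 14.3% against 3.64% and 7.54% of all genes tested), with median log2 fold changes of 0.08 and 0.05. In rRNA-depleted libraries, 2 of 13 rose (*Hspg2* and *Nid2*) and 1 fell (*Lamb1*) in sg5, and 1 rose (*Lamb3*) and 1 fell (*Agrn*) in sg6, named here after their values were seen (15.4% and 7.69% against 3.04% and 4.31% of all genes tested in sg5, and 7.69% and 7.69% against 2.16% and 3.59% of all genes tested in sg6). *Lama5*, a laminin alpha chain of mature basement membranes, was at 2.9, 4.11 and 3.16 CPM in the WT libraries, 5.94, 10.4 and 11.6 in sg5 and 10, 23.3 and 25 in sg6 and rose, with log2 fold changes of 1.45 ± 0.37 (adjusted p = 0.0179) in sg5 and 2.51 ± 0.38 (adjusted p = 0.00118) in sg6. In rRNA-depleted RNA *Lama5* passed in neither clone, with log2 fold changes of 0.15 ± 0.45 (adjusted p = 0.913) in sg5 and 1.57 ± 0.43 (adjusted p = 0.0759) in sg6. *Lama2*, the laminin chain of muscle, was at 0.943, 1.52 and 1.93 CPM in the WT libraries, 0.65, 0.471 and 0.506 in sg5 and 0.163, 0.386 and 0.746 in sg6 and fell, with log2 fold changes of -1.46 ± 0.42 (adjusted p = 0.0319) in sg5 and -1.81 ± 0.46 (adjusted p = 0.0165) in sg6. For *Lama2* too neither clone passed in rRNA-depleted RNA, with log2 fold changes of -1.13 ± 0.56 (adjusted p = 0.335) in sg5 and -2.15 ± 0.61 (adjusted p = 0.0941) in sg6. *Sparc*, which binds collagen IV, had log2 fold changes of 0.16 ± 0.13 (adjusted p = 0.412) in sg5 and 0.64 ± 0.13 (adjusted p = 0.00646) in sg6, and *Hspg2*, which encodes perlecan, had log2 fold changes of 0.48 ± 0.13 (adjusted p = 0.0276) in sg5 and 0.76 ± 0.13 (adjusted p = 0.00281) in sg6.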

How the data were processed

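RNA of 3 lines of C3H/10T1/2 cells was measured in 9 polyA-selected and 9 rRNA-depleted libraries. For polyA, the authors quantified reads with Salmon on mm10 known genes and summed to genes with tximport, and the deposited table holds an expected count per gene, not normalized, already in whole numbers. For rRNA-depleted RNA, the authors aligned reads with STAR and counted genes and transposable element (TE) loci with TElocal, and the deposited table holds raw counts. The submitters' processing notes give Salmon 0.8.2 and STAR 2.27.10a. The strand setting of either counting is not given in the sources used here. All per-sample columns were used, and no library pair was identical.

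From these tables, edgeR 4.0.16 in R 4.3.3 was run on each kind of library: filterByExpr (minimum count 10, minimum total 15, large group size 10, minimum proportion 0.7), TMM scaling, and the quasi-likelihood test on all 9 libraries in 1 fit of 3 groups, over 15480 genes in polyA and 56086 features (13303 genes among them) in rRNA-depleted RNA. Adjusted p-values are Benjamini-Hochberg over all features tested. CPM values use TMM-scaled totals. The standard error is the size of the log2 fold change divided by the square root of the F statistic. The scripts were run on simulated counts with known changes in sg5 alone, all larger than the threshold. Every simulated gene had the same spread, and no TE loci were included. That run does not cover changes near the threshold.

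Classes and gene lists were written by hand, and the members and lists were chosen with earlier results of these data known. Named collagens are those past the threshold in any comparison and those with a mean of at least 10 CPM in a polyA group, and named list genes are those past the threshold in both clones in polyA and the 2 of highest mean CPM of each list, with exceptions said to be chosen after their values were seen. Groups and replicate numbers come from the sample labels. Gene positions are from GENCODE on GRCm38, and upstream windows from RefSeq. Counts of genes past the threshold in both clones were not used as a result, since the comparisons share WT libraries. Alternatives were DESeq2 1.42.0, median-of-ratios size factors, no filter or at least 10 counts in every library, a replicate block, fits of just the 2 lines in question, glmTreat at a log2 fold change of 1, a stricter threshold (log2 fold change over 2, adjusted p under 0.01), counts thinned to the smallest library, genes alone without TE loci, plain library totals, and leaving out each library in turn. Totals limit the precision of low genes, and floors cover counting error only.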

Additional observations from a re-analysis of the deposited data

Results flagged for a closer look

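Since sg5 and sg6 share their WT libraries, a difference between their effects is the difference between sg5 and sg6, and it was tested directly by edgeR. Among the collagens it passed the threshold for *Col8a1* at a log2 fold change of 2.24 (sg5 over sg6) in polyA libraries, for *Col8a2* at 1.70 in polyA and 2.14 in rRNA-depleted libraries, for *Col15a1* at 1.5 in polyA, and for *Col18a1* at -2.92 in polyA. *Col8a2* is the gene for which both kinds of library passed. In rRNA-depleted libraries *Col8a1* was at 1.86 ± 0.47 (adjusted p = 0.17), *Col15a1* at 1.24 ± 0.38 (adjusted p = 0.325) and *Col18a1* at -1.66 ± 0.37 (adjusted p = 0.0881).

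Genes of the other lists that differed between the clones were chosen by this difference. The N-propeptidase *Adamts2* was lower in sg5, at -1.14 in polyA and -1.19 in rRNA-depleted libraries. The integrin subunit *Itga11* was higher in sg5, at 2.63 and 2.81. The laminin chain *Lama3* was at -2.79 in polyA, from means of 0.0657 ± 0.0117 CPM in sg5 and 0.469 ± 0.25 CPM in sg6. The laminin chain *Lamb1* was at -1.27 in rRNA-depleted libraries and at -0.19 ± 0.15 (adjusted p = 0.6) in polyA. The surface marker *Thy1* was at -8.76 and -8.25, and the epithelial cadherin *Cdh1* was at 1.59 in polyA. In rRNA-depleted libraries the cartilage link protein *Hapln1* was at -1.76 and the endothelial factor *Erg* at 1.65, and in polyA they were at -1.47 ± 0.70 (adjusted p = 0.339) and 0.90 ± 0.38 (adjusted p = 0.266). The part of these marker genes in the collagen differences was not tested.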

How the results depend on the processing

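Over the collagens past the threshold and the alternatives tried, 749 values were computed, of which 626 kept the call, 123 lost it and 0 changed direction. All reuse the same libraries. Some fits left out a library of the line outside the comparison, which bears on it only through filter, scaling and shared spread. The stricter threshold reuses the main fit, so any estimate of size under 2 loses its call there. These totals are therefore not a measure of how firm the calls are. Counts of collagens under other settings are given in this section without shares of all genes. They show only how the calls moved from the main fit. Tested against a log2 fold change of 1 in polyA libraries, 1 collagen was higher than WT in sg5, with 3 lower. For sg6 these counts came to 1 and 1. Between the clones, 0 were higher in sg5 and 1 was lower (*Col18a1*). In rRNA-depleted libraries that test left 1 higher and 2 lower (*Col18a1* and *Col23a1*) in sg5. For sg6 it left 0 higher and 1 lower, and between the clones 0 in either direction. With a log2 fold change beyond 2 and an adjusted p below 0.01, the counts were 1 and 2 in sg5, 0 and 1 in sg6, and 0 higher between the clones in polyA, and 1 higher in sg5, and 0 and 1 in sg6, in rRNA-depleted libraries. Without a filter, 7 were lower in sg6 in polyA, and in rRNA-depleted libraries 11 were higher in sg5, 5 lower in sg6, and 4 higher and 1 lower between the clones. With at least 10 counts in every library, 4 were higher in sg5 and 1 was lower in sg6 in rRNA-depleted libraries. With only the 2 groups compared, 3 were higher in sg6 in polyA. DESeq2 gave 2 higher and 1 lower between the clones in rRNA-depleted libraries. With plain library totals the WT fibrillar sum in polyA was 19107.7 CPM. Alternatives counted over both clones together were not run.

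Leaving out 1 library at a time, polyA counts ran from 3 to 7 higher and 4 to 7 lower in sg5, 3 to 8 and 4 to 5 in sg6, and 2 to 3 and 1 to 1 between the clones. In rRNA-depleted libraries they ran from 3 to 10 and 2 to 4 in sg5, 1 to 4 and 1 to 3 in sg6, and 1 to 3 and 0 to 0 between the clones. The lowest count of collagens higher in sg5 came without WT replicate 2 in polyA, and without WT replicate 3 or sg5 replicate 2 in rRNA-depleted RNA. The sg6 count of 3 higher in polyA came without WT replicate 2.

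The replicate numbers are shared by the lines. The correlation of the deviations of same-numbered libraries ran from 0.0257 to 0.43 in polyA, over 0.1 in 7 of 9 pairs, and from -0.229 to 0.638 in rRNA-depleted libraries, over 0.1 in 8 of 9. All 9 polyA libraries and 7 of 9 rRNA-depleted libraries correlated best with their own number, a hint from the data and not the design. With the number as a replicate block, *Col11a2* in sg5 polyA libraries was at -1.0 (adjusted p = 0.00259), no longer past the threshold. *Col10a1* and *Col19a1* in sg6 polyA libraries then passed, at 1.61 (adjusted p = 0.00785) and 1.36 (adjusted p = 0.0284), so 8 were higher there. In rRNA-depleted libraries the block gave 10 higher in sg5 and 4 higher in sg6, 4 lower in sg5, 5 lower in sg6, and 4 higher and 1 lower between the clones. *Col5a3* passed there in both clones, at -1.52 (adjusted p = 0.0023) and -1.55 (adjusted p = 0.00244), and *Col8a1* and *Col9a1* in sg6, at -2.01 (adjusted p = 0.00664) and -1.30 (adjusted p = 0.00366). Depth limits the genes under 1 CPM.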
